A study of Homo sapiens with 4 samples.

Results

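The genes described here encode most of the nuclear part of the respiratory chain and of ATP synthase, with some assembly factors and related genes. They were taken from the deposited gene count table by name, as protein_coding entries beginning with NDUF, UQCR, COX4 to COX8 or ATP5, together with SDHA, SDHB, SDHC and SDHD. The rule found 98 genes among 60544 in the table, of which 19931 are protein_coding, and they lie on 22 chromosomes. Of the 98, 91 passed the filter on low counts and were tested, and 7 did not. Poly(A) RNA of PC3, a long-established line from a human prostate cancer, was measured in 2 control libraries (shNC) and in 2 libraries with the label sh812. Since the design compares METTL3 knockdown with control, sh812 was read as the short hairpin RNA against METTL3. All 4 libraries share the line and the medium (RPMI-1640 with serum and antibiotics), and the knockdown arm is 1 hairpin label. The labels do not say that replicates came from separate cultures, so p-values measure only the spread between these libraries, which may be technical.

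The respiratory chain sits in the inner mitochondrial membrane. Complexes I and II take electrons from NADH and succinate and pass them to ubiquinone, complex III passes them on to cytochrome c, and complex IV hands them to oxygen. Complexes I, III and IV pump protons, and complex V, the ATP synthase, uses the proton gradient to make ATP. Most subunits are encoded in the nucleus and imported, while a small core set is encoded in mitochondrial DNA. METTL3 is the catalytic subunit of the enzyme that writes N6-methyladenosine (m6A) on messenger RNA.

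METTL3 itself was at 44.3 and 43.6 CPM (read count scaled to the TMM-adjusted library size) in shNC replicates 1 and 2, and at 7.66 and 8.75 CPM in sh812 replicates 1 and 2. Its level in sh812 was 18.7% of control (log2 fold change -2.42, SE 0.11, adjusted p = 5.54e-14 in the quasi-likelihood test of edgeR, Benjamini-Hochberg adjusted over 16802 genes). Total counts ranged from 31450648 to 37041330 per library. Markers of epithelial cells (KRT8, KRT18, KRT19, EPCAM and CDH1) summed to 815.7 and 921.0 CPM in shNC and to 956.4 and 1017 CPM in sh812. Of these 5, KRT18, EPCAM and CDH1 were called higher in sh812 (log2 fold changes 0.30, 0.45 and 0.57) and none lower. Of the endothelial markers, PECAM1 was called higher (0.59), while VWF and CDH5 were at or near 0. These markers moved with the respiratory chain genes described below, and their part in those results was not tested. The prostate secretory genes KLK3 and KLK2 had no count in any library, where a count of 0 allows up to 3 counts (counting error only). Bulk RNA gives relative levels, so fewer cells of a type and less RNA per cell cannot be told apart.

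Respiratory chain genes were higher in sh812 by small amounts. Of the 91 tested, 32 were called higher (adjusted p under 0.05), which is 35.2%, and 59 were not called. Among all 16802 genes tested, 912 (5.43%) were called higher and 910 (5.42%) lower. None of the 91 was called lower by edgeR, DESeq2 (5.64% of all genes) or limma-voom (5.54%), and 0 were lower at an unadjusted edgeR p under 0.05, against 2166 of all 16802 genes. The median log2 fold change of the 91 was 0.19, with a range from -0.55 in NDUFA4L2 to 1.15 in COX6B2, both low-count genes that were not called. The median over all genes tested was -0.0056. Both sh812 libraries lay above both shNC libraries in 65 of the 91 (71.4%), against 26.2% of all genes tested, and both lay below in 2, against 27.4%. In all, 81 of the 91 had a log2 fold change above 0. Summed over all members, the level was 9627 and 10529 CPM in the shNC libraries and 11852 and 11526 CPM in the sh812 libraries. The mean sum was thus 16.0% higher, where the sum over all genes tested was 3.14% higher with the same scaling. Members made up 0.986% and 1.06% of the raw counts in shNC, and 1.16% and 1.14% in sh812.

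The number of calls depended on single libraries. Leaving out shNC replicate 1 gave 23 calls, where 5.24% of all genes tested were called higher, and leaving out shNC replicate 2 gave 56 (9.5% of all genes). Leaving out sh812 replicate 2 gave 10 (1.55% of all genes), and leaving out sh812 replicate 1 gave 6 (1.46%). With 3 libraries, the lone library of a group is assumed to vary like the other group. Scaling to library size alone, in place of TMM, left 19 members called, while the split over all genes moved to 561 higher (3.34%) and 1328 lower (7.9%). Every one of the 32 kept a log2 fold change above 0 in each of these settings. They were selected as higher in these same libraries, so the kept sign is no independent support. shNC replicate 1 lay below shNC replicate 2 in 78 of the 91 members (85.7%), against 49.5% of all genes tested, with a median log2 difference of 0.13. It was the lowest of the 4 libraries in 72 members (79.1%), and in 4700 of all 16802 genes tested. The sh812 libraries were closer together, with a median log2 difference of -0.063 between replicates 2 and 1.

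**Figure D1:**
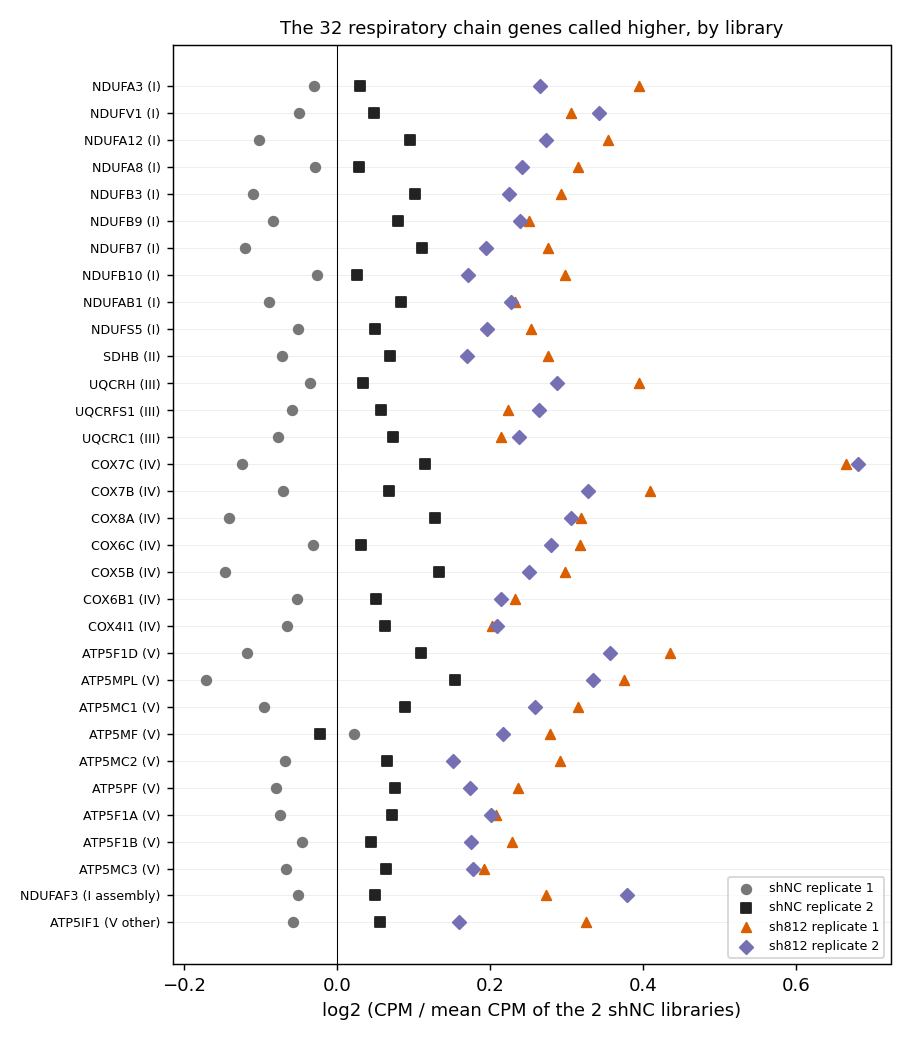
Each of the 32 respiratory chain genes called higher is a row, with its complex in brackets, and the 4 points are the 4 libraries. The horizontal axis is log2 of CPM over the mean CPM of the 2 shNC libraries. Both sh812 libraries lie to the right of both shNC libraries in every row, shNC replicate 1 is the leftmost point in 31 of the 32 rows, and COX7C stands farthest to the right. Rows were selected by calls on these same libraries, so the separation of the groups adds no support.

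COX7C, a small subunit of complex IV, had the largest change among the called members. It was at 257.6 and 304.2 CPM in the shNC libraries and at 445.7 and 450.4 CPM in the sh812 libraries, a ratio of 1.60 (log2 fold change 0.67, SE 0.066, adjusted p = 1.47e-07). Both sh812 values stood well above both controls, and the gap between the groups exceeded that between the shNC libraries. Without shNC replicate 1 the log2 fold change was 0.56. COX7B, another small subunit of the same complex, rose from 208.4 and 229.3 CPM to 290.8 and 274.9 CPM (log2 fold change 0.37, SE 0.062, adjusted p = 0.000295).

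The stretches upstream of several called genes are shown because COX7C and COX7B, which had the largest changes among the called genes of complex IV, carry the same short element. Each line gives 120 bases, from 150 to 31 bases before the RefSeq start of the gene (GRCh38.p14), read 5′ to 3′ on the strand of the gene. Capitals mark matches to an element of ACTACA, any 2 bases and TCCC, known from promoters bound by ZNF143, or, in COX5B, to the NRF1 letters GCATGCGC and the ETS letters CCGGAAG.
COX7C, chr5:86617791-86617910, plus strand: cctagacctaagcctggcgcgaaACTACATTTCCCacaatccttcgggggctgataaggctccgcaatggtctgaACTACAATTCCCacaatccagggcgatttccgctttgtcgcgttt
COX7B, chrX:77899318-77899437, plus strand: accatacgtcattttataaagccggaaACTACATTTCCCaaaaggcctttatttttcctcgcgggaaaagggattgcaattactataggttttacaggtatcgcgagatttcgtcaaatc
NDUFB10, chr16:1959388-1959507, plus strand: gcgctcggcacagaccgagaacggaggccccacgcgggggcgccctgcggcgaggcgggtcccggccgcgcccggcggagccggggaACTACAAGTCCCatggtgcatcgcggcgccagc
COX5B, chr2:97645912-97646031, plus strand: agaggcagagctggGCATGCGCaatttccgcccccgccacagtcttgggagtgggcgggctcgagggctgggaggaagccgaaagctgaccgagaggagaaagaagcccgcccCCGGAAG

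COX7C holds the element at 2 places, and COX7B and NDUFB10 hold it once. Within the wider RefSeq window of 300 bases (250 before to 50 after the start), searched on both strands, 79 of the 98 members had a sequence and 5 of them (6.33%) held this element, against 2.90% of 15163 protein-coding promoters. The other two with it were UQCR10 and ATP5PO, neither of which was called. NRF1, a transcription factor long known to act on respiratory genes, has the letters GCATGCGC in 15 of the 79 (19.0%), against 4.26% of protein-coding promoters. The letters CCGGAAG, bound by ETS factors such as GABPA, were in 21 (26.6% against 14.4%), and AAGATGGC, bound by YY1, in 11 (13.9% against 4.0%). The ETS and YY1 letters can share bases, and 2 members held both. GGGGCGGGG, bound by SP1, was in 10 members (12.7% against 22.8%), and CCAAT in 28 (35.4% against 36.6%). By call, NRF1 letters were in 5 of 25 called members and in 10 of 51 tested members not called, and ETS letters in 8 of 25 and 13 of 51. The ZNF143-type element was in 3 of 25 and 2 of 51, but it was picked because it stood in called genes, so nothing can be read from that split. A match is a description of letters, and no binding was measured.

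Complex I, which oxidizes NADH, had 37 subunits tested, of which 10 were called higher and none lower, with a median log2 fold change of 0.18. Their summed level was 13.3% higher in sh812, against 3.14% for the sum over all genes tested. Among the 3 subunits of the NADH-oxidizing core, NDUFV1, which carries the NADH site, rose from 128.3 and 137.4 CPM to 164.2 and 168.4 CPM (log2 fold change 0.32, SE 0.062, adjusted p = 0.00117). NDUFS1, the large iron-sulfur subunit beside it, was at 155.7 and 151.3 CPM in shNC and at 163.4 and 154.6 CPM in sh812, and was not called (adjusted p = 0.67). The groups overlapped for NDUFS1 and were separate for NDUFV1. NDUFS3, NDUFS7 and NDUFS8, of the core that reduces quinone, were not called, with log2 fold changes of 0.12 to 0.15, and 0 of these were higher at an unadjusted p under 0.05.

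The other 9 calls of complex I were among its 30 tested accessory subunits, which surround the core and are needed for its assembly or stability. NDUFA12 rose from 56.8 and 65.2 CPM to 78.0 and 73.7 CPM (log2 fold change 0.32, adjusted p = 0.00831). NDUFA3 rose from 36.4 and 38.0 CPM to 48.9 and 44.7 CPM (log2 fold change 0.33, adjusted p = 0.0106). In both, the lower sh812 library was above the higher shNC library. NDUFB9, the most abundant member of complex I by mean CPM, rose from 213.4 and 238.8 CPM to 269.1 and 266.8 CPM (log2 fold change 0.25, adjusted p = 0.0115). NDUFA8, NDUFB3, NDUFB7, NDUFB10, NDUFS5 and NDUFAB1, the acyl carrier protein of mitochondria, rose with log2 fold changes of 0.23 to 0.28. NDUFA13 had the largest log2 fold change among uncalled members with a mean of at least 1 CPM, 0.55 (adjusted p = 0.403). Its values were 1.16 and 1.04 CPM in shNC and 1.17 and 2.07 CPM in sh812, so a single sh812 library carried the difference.

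Of the 8 NDUFAF genes, which encode assembly factors of complex I rather than subunits, NDUFAF3 was called. It rose from 35.6 and 38.2 CPM to 44.6 and 48.0 CPM (log2 fold change 0.33, SE 0.083, adjusted p = 0.0117). The median of the 8 was 0.17. NDUFAF1 and NDUFAF7 had log2 fold changes of -0.0081 and -0.0064.

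Complex II, succinate dehydrogenase, belongs to the TCA cycle as well as to the chain and has 4 subunits. SDHB, its iron-sulfur subunit, rose from 144.4 and 159.1 CPM to 183.8 and 170.7 CPM (log2 fold change 0.22, SE 0.064, adjusted p = 0.0249). The other 3 were not called. SDHC, a membrane anchor, was at 180.4 and 186.6 CPM in shNC and at 201.2 and 202.1 CPM in sh812 (log2 fold change 0.14, adjusted p = 0.145), with no overlap between the groups. The second anchor, SDHD, was at 80.9 and 87.1 CPM against 85.8 and 82.0 CPM, and the flavoprotein SDHA was at 9.89 and 9.99 CPM against 10.3 and 9.47 CPM. For both, the groups overlapped and the log2 fold change was under 0.01 in size, with a sign that changed between scalings for SDHD (0.0019 with RLE factors). The median of complex II was 0.067.

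Complex III had 9 members tested and 3 called higher, with a median of 0.17. UQCRH, the hinge protein near cytochrome c1, rose from 216.2 and 226.9 CPM to 291.4 and 270.4 CPM (log2 fold change 0.34, SE 0.060, adjusted p = 0.00053). The core subunit UQCRC1 rose from 383.4 and 425.4 CPM to 469.0 and 476.7 CPM (log2 fold change 0.23, adjusted p = 0.0154). UQCRFS1, the Rieske iron-sulfur protein, rose from 92.8 and 100.6 CPM to 112.9 and 116.2 CPM (log2 fold change 0.24, adjusted p = 0.0175). The sh812 libraries were the higher pair in all of these, as in every member called higher. UQCRB was at 278.3 and 281.9 CPM against 325.7 and 305.5 CPM and missed the threshold (adjusted p = 0.0582). UQCRC2, the partner of UQCRC1 in the core, had a log2 fold change of 0.055 (adjusted p = 0.652).

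Complex IV, cytochrome c oxidase, had 14 of its 18 members tested and 7 called higher, with a median of 0.25. Its summed level was 1643 and 1855 CPM in shNC and 2211 and 2183 CPM in sh812. That was 25.6% higher, against 3.14% for the sum over all genes tested. Differences between complexes were not tested. Besides COX7C and COX7B, the calls were COX6C, COX8A, COX5B, COX6B1 and COX4I1, small subunits around the mitochondrially encoded catalytic core. COX6C rose from 185.7 and 194.1 CPM to 236.6 and 230.5 CPM (log2 fold change 0.30, adjusted p = 0.00174). COX8A rose from 63.5 and 76.5 CPM to 87.3 and 86.5 CPM (log2 fold change 0.31, adjusted p = 0.00971), and COX5B rose from 85.9 and 104.4 CPM to 117.0 and 113.2 CPM (log2 fold change 0.28, adjusted p = 0.0192). In COX8A and COX5B the 2 shNC libraries were wide apart, and without shNC replicate 1 neither was called (adjusted p = 0.0776 and 0.165). COX4I1, an early-assembling subunit, rose from 269.8 and 294.7 CPM to 324.7 and 326.3 CPM (log2 fold change 0.21, adjusted p = 0.0258). COX5A, COX6A1, COX7A2 and NDUFA4, which is named for complex I but is a subunit of complex IV, were not called, with log2 fold changes of 0.19 to 0.23 and adjusted p from 0.0548 to 0.0702.

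Several complex IV subunits come in a ubiquitous and a tissue-restricted form, and PC3 cells held the ubiquitous one. COX6A2, the heart and muscle form, had 0 counts in every library. COX4I2, the form found in lung, had 1 count in the 4 libraries together. COX8C had 4, 0, 3 and 0 counts, and COX7A1, the muscle form, had 9, 3, 1 and 3 counts. None of these was tested. COX6B2, known from testis, had 9 and 6 counts in shNC and 21 and 13 in sh812 (adjusted p = 0.325). COX7B2 had 66 and 52 against 68 and 100 counts (adjusted p = 0.34), and NDUFA4L2 had 31 and 24 against 24 and 14 (adjusted p = 0.586). None of the 3 was called. UQCRHL, a near-identical copy of UQCRH, had 564 and 510 against 656 and 623 counts, and reads of the 2 genes may be shared. COX7A2L, a factor that joins complexes III and IV, was at 109.0 and 120.1 CPM against 129.6 and 127.1 CPM (log2 fold change 0.16, adjusted p = 0.107).

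Complex V had 17 of its 18 members tested and 9 called higher, with a median of 0.20. ATP5F1B, the catalytic beta subunit of the F1 head and the most abundant member of all, rose from 1221 and 1299 CPM to 1477 and 1423 CPM (log2 fold change 0.20, SE 0.056, adjusted p = 0.0195). ATP5F1A, the alpha subunit, rose from 677.5 and 750.3 CPM to 824.4 and 820.4 CPM (log2 fold change 0.20, adjusted p = 0.0245). ATP5F1D, the delta subunit of the central stalk, rose from 59.2 and 69.3 CPM to 86.9 and 82.3 CPM (log2 fold change 0.40, SE 0.076, adjusted p = 0.00127). The gamma subunit ATP5F1C, which turns inside the same head, lay on the other side, at 138.0 and 138.4 CPM in shNC against 132.5 and 127.9 CPM in sh812, and was not called (log2 fold change -0.086, adjusted p = 0.415). It is named here because its groups did not overlap, a choice made after its values were seen.

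The c-ring, the rotor in the membrane, is built from 1 mature protein encoded by ATP5MC1, ATP5MC2 and ATP5MC3, and all 3 genes rose. ATP5MC1 went from 129.7 and 147.4 CPM to 172.4 and 165.9 CPM (log2 fold change 0.29, adjusted p = 0.00561). The log2 fold change was 0.22 in ATP5MC2 (adjusted p = 0.0284) and 0.19 in ATP5MC3 (adjusted p = 0.0468). None of the 3 was called with the length trend removed (median 0.11), and without shNC replicate 1 ATP5MC2 (adjusted p = 0.0586) and ATP5MC3 (adjusted p = 0.112) were not called. ATP5MC3 was the most abundant of the 3 by CPM, at 258.2 and 282.7 in shNC. Of the small membrane subunits, ATP5MPL rose from 78.3 and 98.2 CPM to 114.5 and 111.3 CPM (log2 fold change 0.36, adjusted p = 0.00464), and ATP5MF rose with a log2 fold change of 0.25. ATP5IF1, the inhibitor that blocks reverse rotation of the enzyme, rose from 66.5 and 72.0 CPM to 86.8 and 77.3 CPM (log2 fold change 0.25, adjusted p = 0.0319). Both the catalytic subunit ATP5F1B and this inhibitor were thus called higher.

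**Figure D2:**
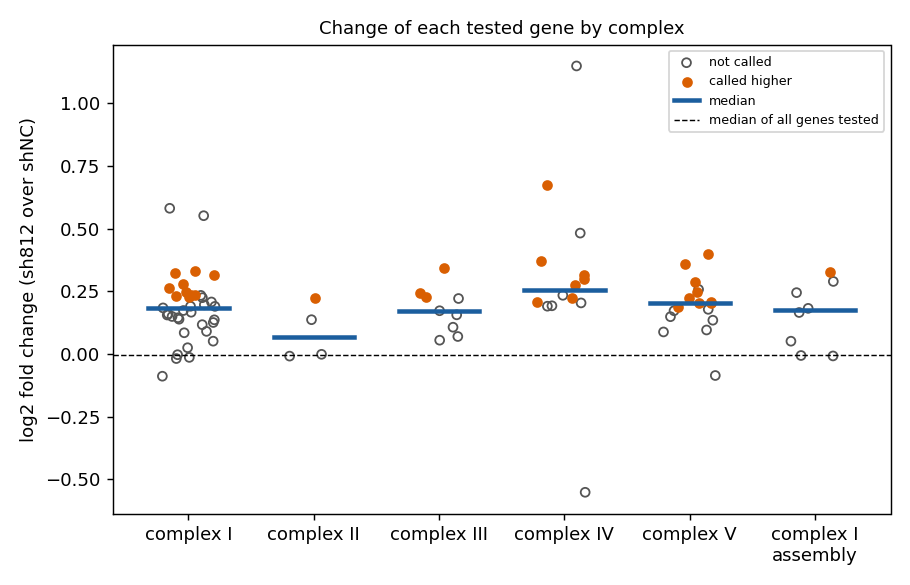
Each point is a tested gene, placed by complex, and the vertical axis is its log2 fold change in sh812 over shNC. Filled points were called higher, the bars are medians (0.18, 0.067, 0.17, 0.25 and 0.20 for complexes I to V and 0.17 for complex I assembly factors) and the dashed line is the median of all genes tested. No point below the line was called.

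Short transcripts make up most of these genes, and length moved with the result. The median transcript length was 761 bases for the 91 members and 2277 bases for all genes tested, and 59 members (64.8%) were under 1000 bases against 16.3% of all genes. Over the 12254 better-expressed genes (mean log2 CPM over 1), log2 fold change and length had a Spearman correlation of -0.325. The same correlation for shNC replicate 2 over shNC replicate 1 was -0.304, so a like trend was present between the control libraries. Genes are not independent replicates, and these correlations are descriptions. With the length trend of each library removed, 11 members were called higher (4.86% of all genes were) and the median was 0.087. Of the 32, 10 remained: ATP5F1A, ATP5F1B, ATP5F1D, ATP5MPL, COX7B, COX7C, NDUFV1, UQCRC1, UQCRFS1 and UQCRH. COX7C then had a log2 fold change of 0.54 (adjusted p = 1.67e-07), and UQCRFS1, whose median transcript is 3475 bases, had 0.28 (adjusted p = 0.00375). The added call was NDUFV3, an accessory subunit of complex I. By complex, the medians were 0.081, -0.030, 0.031, 0.15 and 0.10 for I to V, and the calls 2, 0, 3, 2 and 4.

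**Figure D3:**
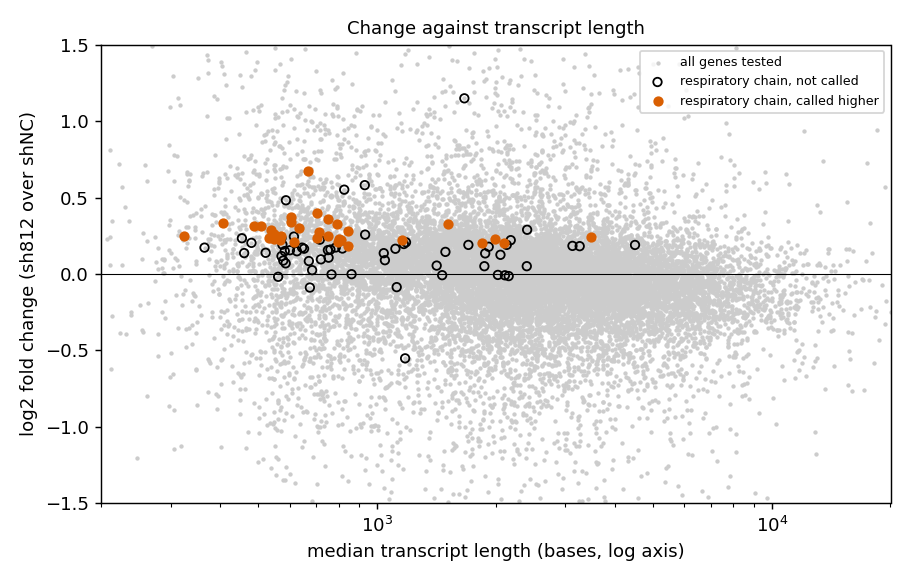
Each grey point is a tested gene, with its median transcript length in bases on a log axis and its log2 fold change in sh812 over shNC on the vertical axis, which is cut at 1.5 in both directions. Respiratory chain genes are circles, filled where called higher. Most filled circles lie under 1000 bases, at log2 fold changes of 0.19 to 0.67.

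Other settings gave nearby counts or lower ones. The calls were 32 with RLE factors (5.43% of all genes) and with upper quartile factors (5.49%), 31 with DESeq2 (6.53% of the 12241 genes with an adjusted p) and 37 with limma-voom (5.81%). They were 36 with no low-count filter (3.2%), 34 with a mean CPM of at least 1 (7.14%) and 35 with the replicate number as a block (5.97%). Removing the trend on length and GC left 12 (4.77%). The block together with the length trend removed gave 13 higher (5.78%) and 1 lower (5.96%), ATP5F1C. Across all settings run on 4 libraries, 9 members were called higher each time: ATP5F1B, ATP5F1D, ATP5MPL, COX7B, COX7C, NDUFV1, UQCRC1, UQCRFS1 and UQCRH. They include members of complexes I, III, IV and V and none of complex II. ATP5F1D, ATP5MPL, COX7B, COX7C and NDUFV1 were also called with any single library left out.

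**Figure D4:**
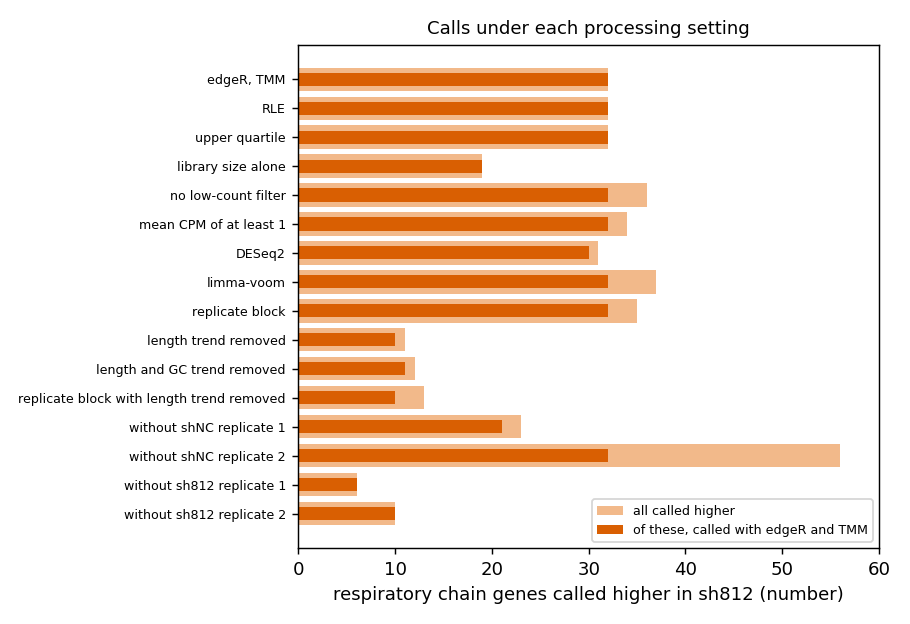
Bars give the number of respiratory chain genes called higher under each setting, and the dark part of a bar is the number also among the 32 called with edgeR and TMM. The counts run from 6 without sh812 replicate 1 to 56 without shNC replicate 2, and are 11, 12 and 13 in the settings that remove the length trend.

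Some subunits that every cell with a working chain needs were counted at very low levels. Of 77 ubiquitous subunits, 10 were under 10 CPM in shNC, and these are named after their values were seen. NDUFV2, of the NADH-oxidizing core, had 15, 10, 21 and 17 counts, while its processed pseudogene NDUFV2P1 had 188, 216, 218 and 250. NDUFA7 and NDUFA13 had mean levels of 0.453 and 1.10 CPM in shNC. The remaining 7 were NDUFB8, ATP5ME, NDUFA11, NDUFA9, UQCR11, NDUFS7 and SDHA, at 3.85 to 9.94 CPM. Exons of 7 of the 10 overlap another gene on the same strand in GENCODE 29, against 17 of the 67 subunits at or above 10 CPM. SDHA overlaps none, and its pseudogenes SDHAP1 and SDHAP3 had 182 to 293 and 43 to 84 counts per library. How reads matching several genes were treated is not given in the sources used here, so a low count in these 10 may not be a low level. None of them was called, and their part in the medians was not tested. Among called members, COX8A shares 34.5% of its exon bases with a same-strand gene that had no count, and NDUFAF3, NDUFB3 and NDUFB9 share 19.8% to 21.7% with genes on the opposite strand. Leaving aside all members with a same-strand overlap, 26 of 66 were called higher, with a median of 0.20.

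The m6A consensus GGACT, the sequence most often methylated by the METTL3 enzyme, was counted in the transcripts, although no methylation was measured. The members had a median of 0.856 per kb, against 0.952 for protein-coding genes tested, and 22 of the 91 (24.2%) had none, against 6.15%. Members were shorter (median 761 bases, against 2277 for all genes tested), and the share with none was not adjusted for length. Of these 22, 7 were called higher, and of the 69 with at least 1, 25 were. Median log2 fold changes were 0.19 in both.

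Genes outside the name rule that build or feed the chain were read from lists. Of 10 further complex I assembly factors, FOXRED1 and DMAC1 were called higher (log2 fold changes 0.31 and 0.36) and none lower. LYRM2 in that list had a log2 fold change of -0.24 with both sh812 libraries below both shNC libraries (adjusted p = 0.105), and it was called lower with the length trend removed (adjusted p = 0.0105) and without shNC replicate 2 (adjusted p = 0.0309). Of the 25 tested assembly factors of complex IV, 3 rose: COX15 of heme a synthesis, COA3 and COA4 (0.33, 0.33 and 0.38). UQCC2 (0.27) was called among 7 genes of complex III outside the rule, TMEM70 (0.21) among 4 assembly factors of complex V, and none among 4 of complex II. CYC1, a subunit of complex III that the name rule misses, was not called (log2 fold change 0.14, adjusted p = 0.154). The mobile carrier cytochrome c, CYCS, rose from 446.6 and 476.4 CPM to 543.3 and 519.0 CPM (log2 fold change 0.20, adjusted p = 0.0241). COQ5 of coenzyme Q synthesis also rose (0.26), and the other 13 of the 15 carrier and coenzyme Q genes were not called. In the TCA cycle list, IDH3G, FH and MDH2 rose (0.28, 0.20 and 0.24) among 17 genes, with none called lower. IDH3A, of the same enzyme as IDH3G, had a log2 fold change of -0.21 with both sh812 libraries below both shNC libraries (adjusted p = 0.126), and it was called lower with the length trend removed (adjusted p = 0.00398) and without shNC replicate 1 (adjusted p = 0.0306). With the length trend removed, UQCC2, COA3, TMEM70, CYCS and COQ5 were not called. In that setting CMC1, CS and OGDH were called higher (adjusted p = 0.0239, 0.0255 and 0.0165). LYRM7 and PDSS1 were called lower there (adjusted p = 0.0338 and 0.0443). Medians of these lists were 0.054 to 0.14. Over all lists, regulators and mitochondrially encoded genes included, 24 of 109 tested genes were called higher and 1 lower. Of these 24, 11 were among the 13 mitochondrially encoded subunits described below, so the pooled count does not describe the nuclear lists. Among all genes tested, 5.43% were called higher and 5.42% lower.

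Of 14 tested regulators of mitochondrial biogenesis, 1 was called higher (7.14%) and 1 lower, shares near those of all genes tested (5.43% and 5.42%). MYC, a transcription factor that promotes growth, rose from 167.1 and 166.5 CPM to 216.4 and 222.7 CPM (log2 fold change 0.40, SE 0.059, adjusted p = 7.7e-05). GABPA, an ETS factor that acts on respiratory genes, was lower, at 73.6 and 67.7 CPM in shNC and 59.3 and 59.4 CPM in sh812 (log2 fold change -0.25, adjusted p = 0.0257). It was not called with the length trend removed (adjusted p = 0.0927) or without shNC replicate 1 (adjusted p = 0.104). GABPA and ATP5PF, which was called higher (log2 fold change 0.21, adjusted p = 0.0442), overlap on opposite strands. Without the strand setting of the counting, it is not known how reads in the stretch they share were assigned. NRF1 was at 22.5 and 19.2 CPM against 19.7 and 19.1 CPM, and TFAM, which packages and transcribes mitochondrial DNA, at 225.2 and 232.3 CPM against 252.0 and 260.5 CPM. Neither was called. With the length trend removed, however, TFAM was called higher (log2 fold change 0.19, adjusted p = 0.0213). In that setting 2 of the 14 regulators, MYC and TFAM, were called higher, where 4.86% of all genes tested were. PPARGC1A, the coactivator best known for driving this programme, had 3, 0, 2 and 4 counts and was not tested.

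The 13 subunits encoded in mitochondrial DNA had 11 calls higher (84.6%, against 5.43% of all genes tested) and none lower, with a median of 0.32. With the length trend removed, 6 of the 13 were called higher (4.86% of all genes were) and the median was 0.19. MT-CO2 and MT-CO1 of complex IV had the largest log2 fold changes, 0.57 and 0.54. Unlike the nuclear genes, 11 of these 13 were lower in shNC replicate 2 than in shNC replicate 1, with a median log2 difference of -0.19.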

How the data were processed

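The authors deposited a table of raw counts per gene, with whole numbers and a different total in each of the 4 libraries. Libraries were made with dUTP strand marking and sequenced as paired reads, per the labels' protocols. The submitters' processing notes name fastp, STAR 2.7.1a, featureCounts, DESeq2 and hg38. The annotation release, the strand setting and the treatment of reads matching several genes are not given in the sources used here.

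Tests used edgeR 4.0.16 in R 4.3.3 (filterByExpr, TMM, glmQLFit and glmQLFTest, no covariate) over 16802 genes, with Benjamini-Hochberg adjustment and a call at adjusted p under 0.05. Fitted fold changes used a prior count of 0.125. SE was derived from the F statistic. Alternatives were RLE, upper quartile and library-size scaling, other filters, DESeq2 1.42.0, limma-voom (limma 3.58.1), a replicate block, lowess removal (span 0.3) of each library's trend on length or length and GC, and leaving out each library. Tests with 3 libraries were added after the data were seen. The edgeR fit was tested on simulated counts. The labels share replicate numbers without saying what they mark.

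Lengths, positions and overlaps come from GENCODE 29 (GRCh38), where 99.0% of tested genes had a length. The length of a gene was the median over its transcripts in the basic GENCODE set. Which of these transcripts PC3 cells express was not measured, so values with the length trend removed rest on annotated lengths. Promoter sequences come from RefSeq (GRCh38.p14). Motif letters were settled after promoters had been read: the ZNF143-type element was added because it stood in called genes, and longer NRF1 and YY1 forms were tried first.

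The members and gene lists were chosen with earlier results of these data known. Named genes are METTL3, the 30 members with the smallest p among those called, all of complex II, the 2 most abundant members of complexes I, III, IV and V, members with an isoform partner, the uncalled member with the largest change at 1 CPM or more, and up to 4 called genes per list. Others named were chosen after their values were seen. Some genes are not reported here.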

Additional observations from a re-analysis of the deposited data

How the results depend on the processing

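The count of 32 members called higher was between 31 and 37 with other factors, filters or tools, apart from library size alone. It was 19 with library size alone, 11 with the length trend removed and 12 with GC removed as well. Leaving out 1 library gave 6 to 56. With the replicate block it was 35, and with the replicate block and the length trend removed it was 13, with 1 member, ATP5F1C, called lower. Deviations from the group means correlated at 0.016 between libraries of the same replicate number, so the numbers were not taken to pair libraries.

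The median log2 fold change of all members, of complexes I to V and of complex I assembly factors was lower with trends removed. With length and GC both removed, these medians were 0.088, 0.074, -0.029, 0.047, 0.15, 0.10 and 0.059. With the length trend removed they were 0.087, 0.081, -0.030, 0.031, 0.15, 0.10 and 0.064, and with the replicate block added they were 0.087, 0.082, -0.030, 0.031, 0.15, 0.10 and 0.062. The sign of complex II thus reversed in all of these, and its median was 0.023 with library size alone. Leaving out single libraries gave medians of 0.12 to 0.28 for all members, 0.12 to 0.26 for complex I, 0.048 to 0.11 for II, 0.13 to 0.25 for III, 0.16 to 0.36 for IV, 0.12 to 0.28 for V and 0.079 to 0.23 for assembly factors. METTL3 stayed between -2.52 and -2.33 when single libraries were left out.

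Among the members named by rule, sign changes were confined to SDHA, SDHC and SDHD. Members outside that rule also changed sign. NDUFS8 went from 0.12 to -0.033 with the length trend removed, and NDUFS4 from -0.089 to 0.064 without shNC replicate 2. SDHD was -0.054 without shNC replicate 1, 0.0018 with DESeq2, 0.0019 with RLE, 0.00042 with limma-voom, 0.029 without sh812 replicate 2 and 0.057 without shNC replicate 2. SDHC was -0.034 with the length trend removed, -0.032 with GC as well and -0.034 with the replicate block and length. The length used for SDHC was 460 bases, a median over annotated transcripts, while all its exons cover 14160 bases. SDHA was -0.068 without sh812 replicate 1, 0.048 without sh812 replicate 2 and 0.0041 without shNC replicate 2. The causes of these changes were not tested. The 7 members that failed the low-count filter were not tested, and 2 libraries per group limit the precision of every value.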
